A study of Mus musculus with 6 samples.

Results

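Receptor tyrosine kinases are the cell surface receptors through which fibroblasts read growth factors, matrix and neighbouring cells. The set described here was a fixed list of 47 of them, of which 46 had at least 1 probe that the platform annotation gave to that gene alone. These 46 receptors, of 19057 named genes on the array, were read by 104 probes. Ephb2 was not analysed here, and 1 further probe that the annotation shares between Fgfr1 and another gene was left out. The receptors were chosen by name and not by a filter on their values, but with earlier results of these data known.

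A receptor of this class binds its ligand outside the cell, pairs with a partner receptor, and phosphorylates tyrosines on its own tail, where adaptor proteins dock and pass the signal to the RAS and MAP kinase cascade, to PI3-kinase and AKT and to phospholipase C gamma. Fibroblasts are known for answering PDGF, EGF, FGF and insulin-like growth factors in this way. Other members are read as marks of other lineages, such as Kit in melanocytes and mast cells, Csf1r in macrophages and Kdr in endothelium.

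The samples were 6 stable clones of NIH3T3, an immortalized fibroblast line from NIH Swiss mouse embryos. Human FEAT, a gene also called METTL13, was expressed from the pEF-DEST51 vector under the elongation factor 1 alpha promoter in 3 of them (FEAT 3, FEAT 15 and FEAT 20), which were selected for 7 days in 10 µg/ml blasticidin S and picked for high FEAT protein. The 3 control clones (∆ccdB 1, 2 and 3, called control 1, control 2 and control 3) carried that vector with its ccdB gene deleted and no FEAT insert, and how they were selected is not given in the sources used here. Each clone is a separate line, so p-values measure differences against the spread between clones.

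The RNA of each clone was read on 1 Illumina one-colour array, and the mean probe intensity was 616 to 735. The background limit of an array lay 3 SDs above the peak of its log2 values, with the SD taken from the lower side of the peak, at intensities of 96.3 to 102. Between 36.9% and 39.8% of the 45281 probes lay above it. Of 10 fibroblast marker genes 9 were above the limit on all 6 arrays, Vim, Fn1, Col1a1 and Lox among them, and Postn was on none. All 8 endothelial markers were below it on all arrays, as were Ptprc, Adgre1, Itgam, Spi1 and Tyrobp of the blood cell list, Epcam and Krt8 of the epithelial list and Sox10, Dct and Tyr of the neural and melanocyte list. Above it on all arrays were 2 of 7 blood cell markers (Cd14 and Lyz2), 2 of 8 epithelial markers (Krt14 and Cdh1), 1 of 7 muscle markers (Des) and 0 of 8 neural and melanocyte markers. The summed intensity of the 8 epithelial markers was 15854 to 25901 in control clones and 20174 to 26066 in FEAT clones. The 6 besides Krt14 and Cdh1 were below the limit on all arrays.

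In these fibroblasts 20 of the 46 receptors (43.5%) were present, meaning that their brightest probe was above the limit on all 6 arrays, against 44.7% of all named genes. They were Pdgfra, Pdgfrb, Egfr, Erbb2, Fgfr1, Fgfr2, Fgfrl1, Igf1r, Insr, Met, Flt1, Axl, Tyro3, Ror1, Ror2, Ddr1, Ddr2, Epha2, Ephb4 and Ryk. Another 6 were above the limit on some arrays only: Epha4 and Ptk7 on 4 of 6, Mst1r and Ephb3 on 2, and Tek and Ntrk2 on 1. The remaining 20 were below it on every array with all of their 52 probes, which read 54.5 to 102. Nearest to the limit, Ror1 was counted as present at 1.01 to 1.22 times the limit of its array, while Kdr reached at most 0.999 times the limit and Ephb1 0.993 and were counted as at background.

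**Figure D1:**
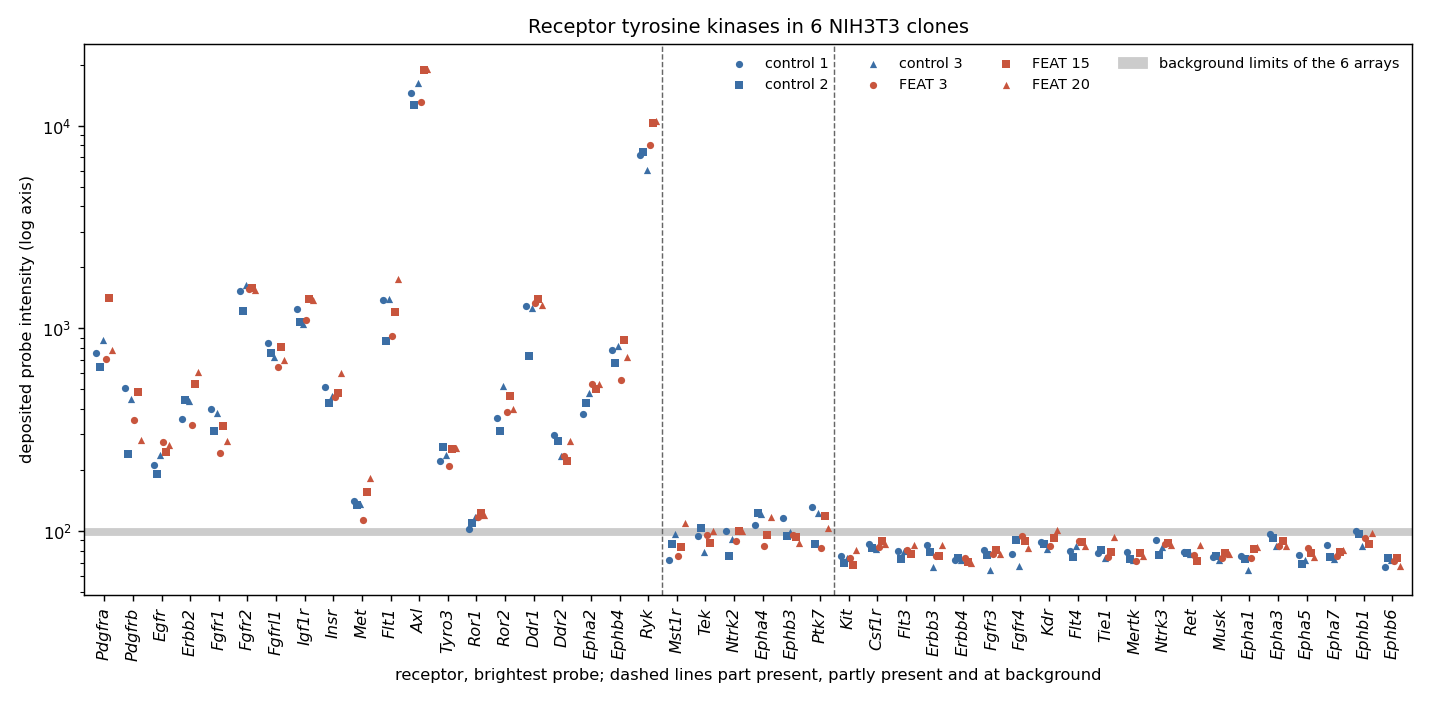
Deposited intensity (log axis) of the brightest probe of each of the 46 receptors in the 3 control clones (blue) and the 3 FEAT clones (red), with the grey band spanning the background limits of the 6 arrays, 96.3 to 102. The 20 receptors on the left lie above the limits in every clone, 6 straddle them and 20 lie below. Levels of different receptors come from different probes and are not comparable with each other.

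None of the receptors passed the test between FEAT and control clones. The test was limma's moderated test on log2 intensities after background correction and quantile normalization, run over all 27169 probes tested with Benjamini-Hochberg adjustment at 0.05, and a log2 difference below is FEAT minus control. It called 46 probes of the whole array (0.169%) and 28 named genes on their brightest probe (0.21%). Of the receptors 35 were tested on their brightest probe, and 0 were called; 3 had an unadjusted p under 0.05 (Ryk, Fgfr1 and Epha4), where 10.2% of all named genes tested had one. The remaining 11, all at background, were too dim to be tested. Of the 58 receptor probes tested 7 (12.1%) had an unadjusted p under 0.05, 5 higher and 2 lower in FEAT clones, against 9.1% of all probes tested (4.55% higher and 4.56% lower). The smallest adjusted p was 0.302, for Ryk, on brightest probes and 0.164, for an Egfr probe, over the receptor probes.

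On their brightest probes all 20 present receptors had log2 differences under 0.5 in size, 14 positive and 6 negative. The median was 0.080 against 0.0061 over all 8517 present genes tested. Neither these counts nor the difference between the medians was tested. On these probes the 95% intervals stayed within a 2-fold change in each direction in all 20 receptors, and within 1.5-fold in 12. The widest bounds on them were 1.70-fold higher for Ddr1 and 0.579 of the control level for Fgfr1. Dimmer Egfr probes above the limit on all arrays had larger differences, 0.612 and 0.609. Their upper bounds were 1.98-fold and 1.89-fold higher. An adjusted p above the threshold does not show that the receptors were alike in both groups. In RNA of a whole culture, fewer cells with a transcript and less of it per cell cannot be told apart.

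**Figure D2:**
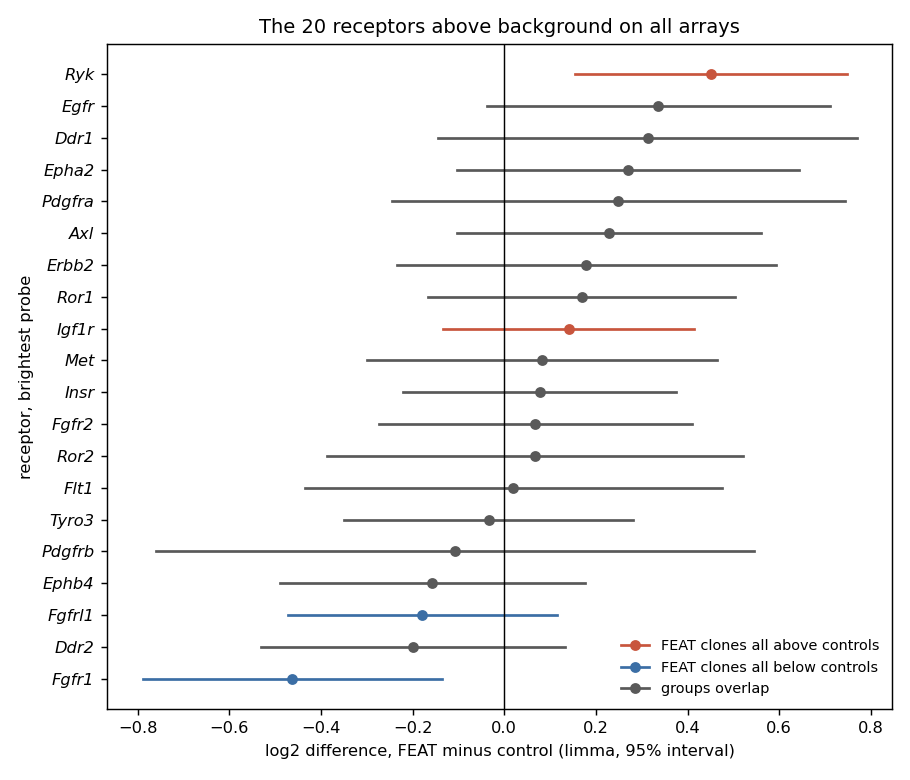
Log2 difference, FEAT minus control, of the brightest probe of the 20 receptors present, with limma's 95% intervals (n = 3 clones a group). Points run from -0.46 for Fgfr1 to 0.45 for Ryk; the intervals of 18 of 20 include 0, and the colour marks receptors whose normalized values do not overlap between groups.

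In 4 of the 35 receptors tested (11.4%) the normalized values of the 3 clones of one group all lay above those of the other, Ryk and Igf1r higher and Fgfr1 and Fgfrl1 lower in FEAT clones. Over all named genes tested this share was 15.2% (7.99% higher and 7.21% lower), and nothing is read from the difference between these shares, which was not tested. Without normalization between arrays the share was 14.3% of the receptors and 10.7% of all named genes, and the receptors that separated were Ryk, Egfr, Ddr1 and Epha2, higher, and Ephb3, lower. Egfr also separated on 3 dimmer probes. The promoter stretches below belong to Ryk, Igf1r and Fgfrl1, which separated after normalization, and to Egfr. Fgfr1 had no entry, and Ddr1, Epha2 and Ephb3 are not shown. The stretches come from RefSeq (GRCm38.p6, plus strand in each case). Each is the 250 bases before the start, with the GC box GGGCGG, the core of the SP1 site, or its reverse complement CCGCCC in capitals.

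Egfr (chr11:16751953-16752202): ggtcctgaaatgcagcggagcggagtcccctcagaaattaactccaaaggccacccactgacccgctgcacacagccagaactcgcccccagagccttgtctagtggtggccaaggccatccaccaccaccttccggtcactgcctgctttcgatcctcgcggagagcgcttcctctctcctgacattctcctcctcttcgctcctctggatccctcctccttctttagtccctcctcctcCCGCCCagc
Ryk (chr9:102834670-102834919): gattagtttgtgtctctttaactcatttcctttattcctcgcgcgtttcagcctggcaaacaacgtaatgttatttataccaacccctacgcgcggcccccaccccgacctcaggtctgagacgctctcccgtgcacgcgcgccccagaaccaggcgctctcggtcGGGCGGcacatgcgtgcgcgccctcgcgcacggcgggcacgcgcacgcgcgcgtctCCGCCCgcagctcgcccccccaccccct
Igf1r (chr7:67952007-67952256): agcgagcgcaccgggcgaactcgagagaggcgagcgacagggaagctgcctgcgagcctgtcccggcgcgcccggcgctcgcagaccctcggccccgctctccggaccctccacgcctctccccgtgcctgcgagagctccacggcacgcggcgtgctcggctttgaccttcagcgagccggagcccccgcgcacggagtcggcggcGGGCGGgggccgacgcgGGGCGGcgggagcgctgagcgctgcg
Fgfrl1 (chr5:108693979-108694228): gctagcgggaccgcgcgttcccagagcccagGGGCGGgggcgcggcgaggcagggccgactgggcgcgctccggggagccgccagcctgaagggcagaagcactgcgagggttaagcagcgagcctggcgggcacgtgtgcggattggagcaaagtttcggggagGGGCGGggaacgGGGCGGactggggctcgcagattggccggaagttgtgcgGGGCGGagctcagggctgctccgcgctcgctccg

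All 4 windows held a GC box on either strand, Egfr 1 (4 to 9 bases before the start), Ryk 2, Igf1r 2 and Fgfrl1 4. Of all 32851 promoter windows of this length 32.7% held one, and of the 20 windows of present receptors 15 did. Counted by gene, 13 of the 17 present receptors with an entry had one in at least 1 of their windows. The share among present genes in general was not examined. The windows were rich in G and C, at 60.8%, 65.2%, 77.6% and 73.6% for Egfr, Ryk, Igf1r and Fgfrl1 against a median of 52.4%. The EGR site GCGNGGGCG was found 58 to 66 bases before the start of Ryk and 209 to 217 bases before that of Fgfrl1, where it overlaps a GC box, and in 4.70% of all windows. The AP-1 site TGANTCA was in none of the 4 windows and in 6.75% of all, and TATAAA was in the Ryk window alone (172 to 177 bases before the start) and in 12.4% of all. These are matches of letters and were not tested as binding sites.

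The PDGF receptors bind the growth factors that drive fibroblast growth and migration. Pdgfra, the alpha receptor, read 759.6, 644 and 875 in control 1, control 2 and control 3 and 706, 1405 and 782 in FEAT 3, FEAT 15 and FEAT 20. FEAT 15 stood above all other clones, whose values overlapped. The log2 difference was 0.25 (SE 0.22, adjusted p = 0.791), and it was -0.030 without FEAT 15. Pdgfrb, the beta receptor, read 509.7, 239 and 448 in control clones and 352, 485 and 281 in FEAT clones. Control 2 and FEAT 20 were the lowest clones of their groups, and the log2 difference of -0.11 (SE 0.30, adjusted p = 0.946) was small beside the spread. The related receptors Kit, Csf1r and Flt3, for stem cell factor, the macrophage growth factor CSF1 and FLT3 ligand, were at background with every probe.

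Egfr, the receptor of EGF and of HB-EGF, was read by 6 probes. Its brightest gave 213, 192 and 238 in control clones and 275, 245 and 266 in FEAT clones, all higher in FEAT as deposited but overlapping after normalization, where control 3 passed FEAT 15 and FEAT 20. The log2 difference was 0.34 (SE 0.17, 95% interval -0.038 to 0.71, adjusted p = 0.598). The second probe read 161, 189 and 161 in control and 253, 238 and 236 in FEAT clones, a difference of 0.61 (SE 0.17, unadjusted p = 0.00391, adjusted p = 0.251). The third read 113, 116 and 102 in control clones and 139, 165 and 146 in FEAT clones, a difference of 0.61 (SE 0.14, unadjusted p = 0.00113, adjusted p = 0.164). Groups did not overlap on either of these.

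The fourth Egfr probe, above the limit on 5 arrays, read 107, 92.4 and 105 in control clones and 117, 124 and 119.7 in FEAT clones (difference 0.36, adjusted p = 0.457), again with no overlap. The fifth and the sixth were below the limit on all arrays. The 4 probes above it each had a positive difference, but they read 1 gene in the same 6 clones and are not independent of each other. The third probe came nearest to the threshold without control 2, at an adjusted p of 0.0852, and with any single clone left out its difference was 0.54 to 0.69.

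**Figure D3:**
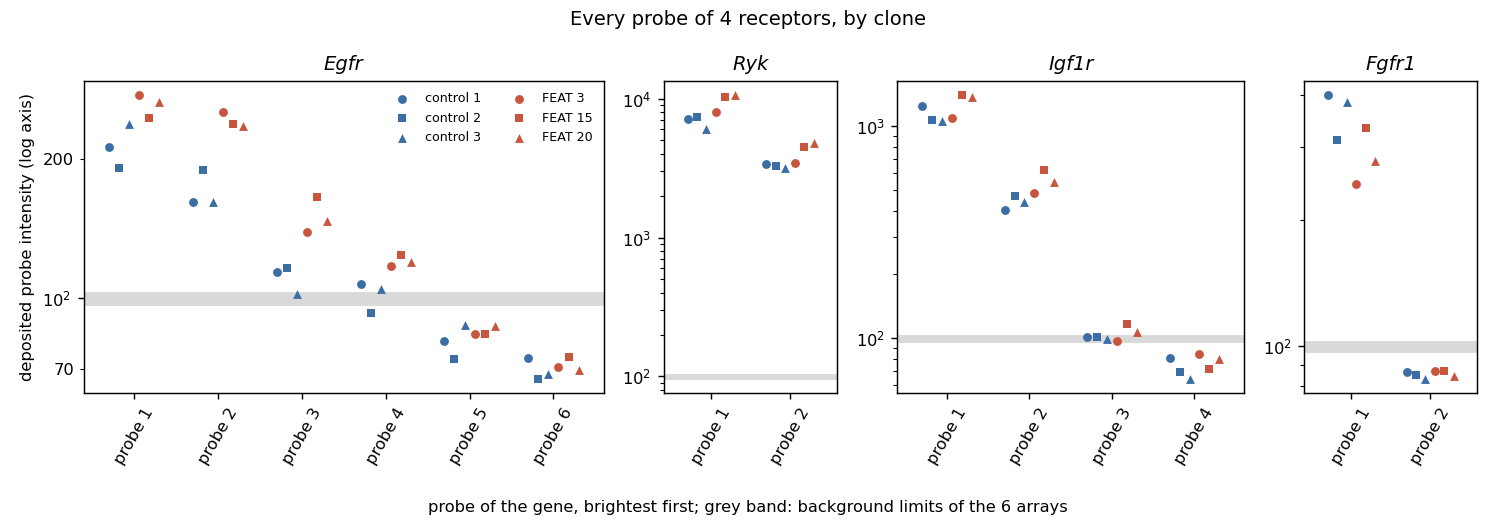
Deposited intensity (log axis) of every probe of Egfr, Ryk, Igf1r and Fgfr1 in control clones (blue) and FEAT clones (red), probes ordered by brightness and the background limits in grey. On the 4 brightest Egfr probes, both Ryk probes and the second Igf1r probe all FEAT clones lie above all control clones. On the brightest Igf1r and Fgfr1 probes the deposited values of the groups overlap.

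Erbb2, a partner of the other EGF family receptors with no known ligand of its own, read 356, 444 and 437 in control clones and 335, 529.5 and 613 in FEAT clones. FEAT 15 and FEAT 20 were the highest clones and FEAT 3 the lowest as deposited, and the difference was 0.18 (SE 0.19, adjusted p = 0.826). The neuregulin receptors Erbb3 and Erbb4 were at background.

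Fgfr1, an FGF receptor of mesenchymal cells, read 399, 311 and 385 in control clones and 244, 332 and 278 in FEAT clones. As deposited, FEAT 15 lay above control 2; after normalization the 3 FEAT clones were the lowest. The log2 difference was -0.46 (SE 0.15, 95% interval -0.79 to -0.14, unadjusted p = 0.00978, adjusted p = 0.351), and between -0.57 and -0.39 with any 1 clone left out. Its other probe was below the limit on all arrays. Fgfrl1, a relative without a tyrosine kinase domain, read 849, 753 and 726 in control clones and 649, 807 and 695 in FEAT clones. As deposited FEAT 15 lay among the control clones, and the normalized difference was -0.18 (adjusted p = 0.739).

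Fgfr2, whose epithelial splice form is the receptor of the keratinocyte growth factor Fgf7, read 1531, 1214 and 1629 in control clones and 1558, 1592 and 1551 in FEAT clones. Apart from a lower control 2 the clones were close (difference 0.068, SE 0.16, 95% interval -0.27 to 0.41), and a second probe above the limit differed by -0.040. Which splice form these probes read was not examined. Fgfr3 and Fgfr4 were at background.

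The receptors of insulin-like growth factor and insulin, which act on growth and metabolism, were both present. Igf1r read 1249, 1077 and 1055 in control clones and 1099, 1402 and 1376 in FEAT clones, where control 1 exceeded FEAT 3 as deposited. Its normalized values did not overlap, and had the smallest spread within groups of the 20 receptors (SD 0.057 on the log2 scale), with a difference of 0.14 (SE 0.12, adjusted p = 0.787). Its second probe read 401, 469.6 and 440.5 in control clones and 484, 619 and 548 in FEAT clones, higher in every FEAT clone than in every control clone (difference 0.30, SE 0.15, adjusted p = 0.580). The third, above the limit on 4 arrays, differed by 0.076, and the fourth was below it on all arrays. Insr read 516, 429 and 463 in control clones and 457, 483 and 601 in FEAT clones. The groups overlapped, and the difference was 0.077 (SE 0.14, adjusted p = 0.908). Its further probes, above the limit on 1 array and on 0 arrays, differed by -0.094 and -0.27.

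Met, the receptor of hepatocyte growth factor, read 141, 135 and 136 in control clones and 113, 156 and 183 in FEAT clones. The control clones lay close together, with FEAT 3 below and FEAT 15 and FEAT 20 above them (difference 0.082, SE 0.17, adjusted p = 0.925). Its relative Mst1r was above the limit in control 3 and FEAT 20 alone.

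Flt1, a VEGF receptor known from endothelial cells and for its soluble form, was the 1 vascular receptor present, on 1 of its 2 probes. It read 1379, 866 and 1397 in control clones and 919, 1199 and 1747 in FEAT clones, with FEAT 20 highest and control 2 lowest (difference 0.020, SE 0.21, adjusted p = 0.987). The other VEGF receptors Kdr and Flt4 and the angiopoietin receptor relative Tie1 were at background, and the angiopoietin receptor Tek was above the limit in control 2 alone. The summed intensity of the 8 endothelial markers, all below the limit, was 617 to 635 in control clones and 626 to 649 in FEAT clones.

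Axl and Tyro3, receptors of the bridging ligand GAS6, were present, and their relative Mertk was at background. Axl read 14419, 12709 and 16297 in control clones and 13141, 18873 and 19027 in FEAT clones. FEAT 15 and FEAT 20 were the highest and FEAT 3 lay within the control range (difference 0.23, SE 0.15, adjusted p = 0.700). Its other probe, also above the limit on all arrays, read 129.7, 143 and 113 in control clones and 113, 123 and 122 in FEAT clones, a difference of -0.18 in the opposite direction. Tyro3 read 222, 261 and 237 in control clones and 209, 253 and 258 in FEAT clones, with a difference of -0.034 (SE 0.14, adjusted p = 0.969).

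Ror1, Ror2 and Ryk are receptors of Wnt ligands, Ror2 and Ryk being known for Wnt5a, and Ryk has a kinase domain that is thought to be inactive. Ryk read 7158, 7409 and 6049 in control 1, control 2 and control 3 and 7991, 10259 and 10582 in FEAT 3, FEAT 15 and FEAT 20. Every FEAT clone was above every control clone, before and after normalization. The log2 difference was 0.45, or 1.37-fold (SE 0.14, 95% interval 0.15 to 0.75, unadjusted p = 0.00645, adjusted p = 0.302). Its other probe read 3401, 3296 and 3172 in control clones and 3443, 4481 and 4791 in FEAT clones, likewise without overlap, at 0.32 (SE 0.13, adjusted p = 0.460).

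The Ryk difference was between 0.39 and 0.54 with any 1 clone left out, and the adjusted p between 0.165 and 0.613. The fibroblast markers were also higher in sum. Their summed intensity was 49648 to 59108 in control clones and 63158 to 71095 in FEAT clones. Of the 9 tested 8 had a positive difference, with a median of 0.44 against 0.0075 over all named genes tested. The markers were not tested as a set. The test called 0 of the 9, against 0.21% of all named genes tested. An unadjusted p under 0.05 was found for 5, against 10.2%. Without overlap between groups 3 were higher and 0 lower in FEAT clones, against 7.99% and 7.21%. The part of these markers in the differences of Ryk and Egfr was not tested. Ror2 read 363, 311 and 518 in control clones and 386, 465 and 401 in FEAT clones, with control 3 the highest clone (difference 0.067, SE 0.21). Ror1, close to the limit, read 103, 109 and 117 in control clones and 118, 122 and 119.9 in FEAT clones (difference 0.17, SE 0.15), higher in each FEAT clone as deposited but overlapping after normalization. Ptk7, a receptor of planar cell polarity that was above the limit on 4 arrays, read 132, 86.4 and 123 in control clones and 82.5, 119 and 103 in FEAT clones, low in control 2 and FEAT 3 (difference -0.32, adjusted p = 0.751). Musk, the receptor of the neuromuscular junction, was at background.

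The discoidin domain receptors, which are activated by collagen, were both present. Ddr1 read 1284, 728 and 1267 in control clones and 1331, 1403 and 1306 in FEAT clones. Control 2 was far below the other clones, and after normalization the groups overlapped (difference 0.31, SE 0.21, adjusted p = 0.702), and without control 2 the difference was 0.057. Its other probe, above the limit on 3 arrays, differed by 0.046. Ddr2 read 299, 277 and 234 in control clones and 234, 223 and 279 in FEAT clones, with a difference of -0.20 (SE 0.15, adjusted p = 0.743).

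Eph receptors bind ephrins on neighbouring cells and guide repulsion and boundary formation. Epha2 read 380.1, 429 and 479 in control clones and 531, 504 and 534 in FEAT clones. All FEAT clones were higher as deposited, while control 3 exceeded FEAT 15 and FEAT 20 after normalization (difference 0.27, SE 0.17, adjusted p = 0.683). Epha4 read 107, 123 and 121 in control clones, all above the limit, and 84.7, 96.1 and 117 in FEAT clones, with FEAT 20 alone above it; the difference was -0.47 (SE 0.19, unadjusted p = 0.0305, adjusted p = 0.479) and the groups overlapped as deposited and after normalization.

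Ephb4, a receptor of ephrin B2, read 781, 676 and 819 in control clones and 556, 879.8 and 719 in FEAT clones, with a difference of -0.16 (SE 0.15, adjusted p = 0.808). Its other probes, above the limit on all arrays, differed by -0.28 and 0.073, so the probes did not point one way. Ephb3 was above the limit in control 1 and control 3 and in no FEAT clone, at 116, 94.6 and 99.4 against 95.6, 94.1 and 87.2 (difference -0.31, adjusted p = 0.586). Epha1, Epha3, Epha5, Epha7, Ephb1 and Ephb6 were at background. So were Ntrk3 and the GDNF family receptor Ret, while the neurotrophin receptor Ntrk2 was above the limit in FEAT 15 alone.

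Differences between clones of one group were as large as those between groups for several receptors. The median SD within groups was 0.19 on the log2 scale over the 20 present receptors and 0.17 over all 8517 present genes. Pdgfrb had an SD of 0.56, above that of 98.6% of present genes, and Pdgfra one of 0.39 (95.1%). Ddr1 (0.35), Flt1 (0.34) and Ror2 (0.34) followed, each above 92.5% to 92.8% of present genes. At the other end stood Igf1r at 0.057, above 2.42%.

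Among the controls, control 2 was the lowest clone for 10 of the 20 receptors, Pdgfra, Pdgfrb, Flt1 and Ddr1 among them, and control 3 the highest for 12; over all present genes these shares were 33.4% and 34.7%. Median deviations of the receptors from the mean of the 6 clones were -0.075, -0.081 and 0.11 in control 1, control 2 and control 3 and 0.049, 0.090 and 0.0026 in FEAT 3, FEAT 15 and FEAT 20. By this median control 3 was the highest of the 6 clones and the other control clones were the lowest.

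**Figure D4:**
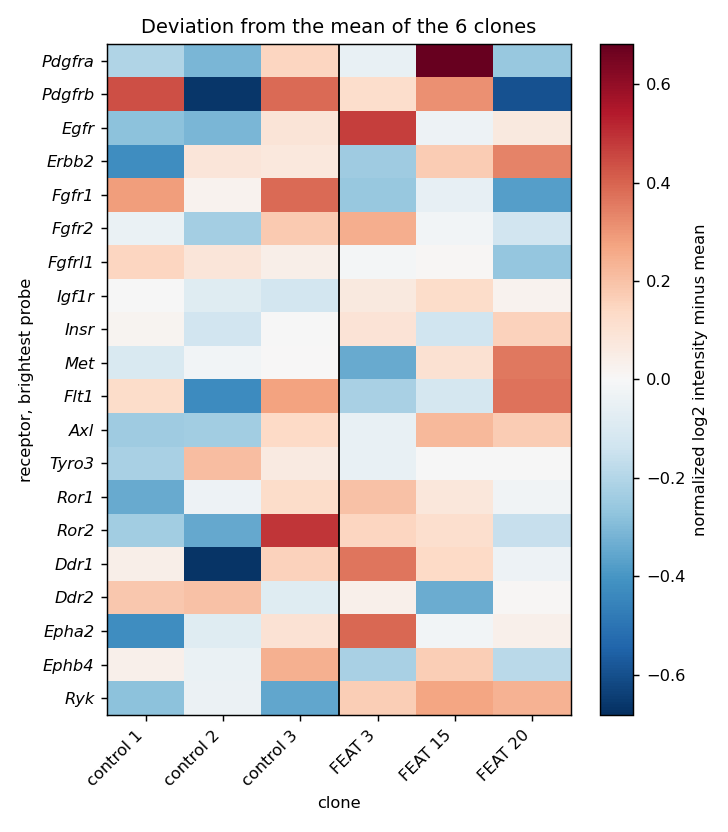
Normalized log2 intensity of each of the 20 present receptors in each clone, minus its mean over the 6 clones (red higher, blue lower), with a line between control and FEAT clones. Single clones stand out, such as FEAT 15 for Pdgfra, control 2 and FEAT 20 for Pdgfrb and control 2 for Ddr1, while Ryk is positive in all 3 FEAT clones and negative in all 3 control clones.

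Genes on either side of the receptors were taken from lists by role, also chosen with earlier results of these data known. Of 48 ligand genes analysed 41 were tested, and 1 rose and 1 fell, where 0.21% of all named genes tested were called. An unadjusted p under 0.05 was found for 12 of the 41, against 10.2% of all named genes, and 11 did not overlap between groups (6 higher and 5 lower), against 15.2%. Their median log2 difference was -0.038 against 0.0075 over all named genes tested. Fgf7 read 3201, 2643 and 1882 in control clones and 5119, 7752 and 6846 in FEAT clones, and rose 2.56-fold (SE 0.18 on the log2 scale, limma, adjusted p = 0.0203). Efna1, a ligand of the EphA receptors, read 543, 452 and 495 in control clones and 242, 315 and 295 in FEAT clones, and fell (log2 -0.96, SE 0.13, adjusted p = 0.0203). Neither gene overlapped between groups. Neither call was kept when control 1, control 3, FEAT 3 or FEAT 15 was left out (adjusted p 0.05001 to 0.154 for Fgf7 and 0.0512 to 0.154 for Efna1). Beside them, the Egfr ligand Hbegf had means of 528 ± 73.3 without and 1095 ± 94.0 with FEAT (SD over 3 clones; difference 1.07, adjusted p = 0.0558; a dim probe, above the limit on 1 array, 0.084). It passed the test in 5 of 10 other settings and without FEAT 20, with adjusted p from 0.00912 to 0.360 over the settings and omissions. The Kit ligand Kitl had means of 875 ± 114 without and 535 ± 53.6 with FEAT (-0.80, adjusted p = 0.0922), with Kit itself at background.

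Of the 16 coreceptors 13 were tested and 0 passed, where 0.21% of all named genes tested were called. Their median was 0.165 against 0.0075 over all named genes tested. An unadjusted p under 0.05 was found for 2, against 10.2%. Without overlap between groups 2 were higher and 1 lower in FEAT clones, against 7.99% and 7.21%. Nrp1, a coreceptor of VEGF and semaphorins, read 1069.8, 1160.3 and 1247 in control clones and 1827, 2059.7 and 1926 in FEAT clones. Its groups did not overlap (log2 0.71, SE 0.15, adjusted p = 0.125), and 2 further probes gave 0.73 and 0.50. The glypican Gpc1 differed by -0.46, the hyaluronan receptor Cd44 by 0.38 (adjusted p = 0.580) and Nrp2, a relative of Nrp1, by -0.31. The further Cd44 probes above the limit on all arrays gave 0.30, 0.27 and 0.064. Those above it on 5 and on 4 arrays gave 0.095 and -0.27. The further Nrp2 probes above the limit on all arrays gave -0.41 (adjusted p = 0.494) and -0.73 (adjusted p = 0.153).

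Of 35 adaptors and effectors 30 were tested and 0 passed, where 0.21% of all named genes tested were called. Their median was 0.0025 against 0.0075 over all named genes tested. An unadjusted p under 0.05 was found for 4, against 10.2%. Without overlap between groups 4 were higher and 2 lower in FEAT clones, against 7.99% and 7.21%. Irs2, the docking protein of the insulin and insulin-like growth factor receptors, read 351 ± 68.9 without and 653 ± 174 with FEAT (log2 0.91, adjusted p = 0.155). The adaptor Grb14, which inhibits the insulin receptor, read 1400.2 ± 228 and 776 ± 185 (-0.96, adjusted p = 0.178, other probe -0.85). Its relative Grb10 read 7872 ± 2404 and 12752 ± 2299 (0.72, adjusted p = 0.271, other probe 0.59). The kinase gene Akt1, above the limit in control 1 and control 2 alone, differed by -0.40.

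Of 29 genes of receptor shutdown and turnover 27 were tested and 0 passed, where 0.21% of all named genes tested were called. Their median was 0.035 against 0.0075 over all named genes tested. An unadjusted p under 0.05 was found for 6, against 10.2%. Without overlap between groups 3 were higher and 2 lower in FEAT clones, against 7.99% and 7.21%. Socs2, a suppressor of cytokine signalling, differed by 0.66 (adjusted p = 0.191), the docking protein Dok1 by 0.52, the phosphatase Ptpn1 by 0.42 and Rnf41, a ubiquitin ligase of ERBB3, by -0.37 (other probes -0.57 and -0.12). Of 11 other receptor tyrosine kinases 6 were tested and 0 passed, where 0.21% of all named genes tested were called. An unadjusted p under 0.05 was found for 0 of them, against 10.2%. Lmtk2 was the 1 present, at 995 ± 148 and 1088 ± 171, and Epha6, Ltk and Styk1 were below the limit on all arrays.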

How the data were processed

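Per the labels' protocols, total RNA came from RNeasy Mini columns and was amplified and labelled (Cy3) with a TotalPrep kit. The submitters' processing notes name BeadStudio, without a version. The authors deposited a linear intensity for each of 45281 probes of each array, with no detection p in the tables used here, and a value table of the series with the same intensity values times 1 factor per array. The lowest intensities, 50.1 to 53.1, show that background was still in them.

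From the intensity values, background was corrected with normexp (offset 16, fitted to the signals; neqc was to be used had detection p been present), followed by quantile normalization and log2 in R 4.3.3 with limma 3.58.1. By mean intensity the brightest 60% of probes, 27169, were kept and tested with lmFit and eBayes, two-sided, and adjusted over all of them. The brightest probe stands for its gene. An exact test of 3 against 3 cannot give p below 0.1. Intensities in the text are as deposited, means with SDs; differences are of normalized log2 values.

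Probes were named through the platform annotation (34885 with 1 gene, 18 with several, 10378 unnamed here). Every receptor was named; receptors present were given by clone, and of each list the genes with the smallest unadjusted p. Data were simulated with 50 probes changed at each of 1.5-fold, 2-fold, 3-fold and 4-fold. On them the test recovered 34% of 1.5-fold changes and 96% of 2-fold changes, and 7.82% of its 179 calls were false. In the real data the test called 46 probes. With fewer calls the adjustment is stricter, so the simulated shares need not hold for the real arrays. Hbegf, at 2.09-fold, was not called. Alternatives were other background corrections, normalizations, filters, variance models and probe choices, the value table, and each clone left out. The receptors and lists were chosen with earlier results of these data known. The number of arrays limits the precision.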

Additional observations from a re-analysis of the deposited data

How the results depend on the processing

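With limma, 0 receptors were called in all 10 other settings of background correction, normalization, filter, variance and probe choice and in all 6 omissions of a clone, with 2 to 5 receptors at an unadjusted p under 0.05. The number of receptors whose groups do not overlap was 3 to 6 in the other settings, a share below that of all named genes in some settings and above it in others, and 6 to 13 in the omissions, where groups separate more easily. Genes of the pathway lists called numbered 5 with the deposited value table and 0 to 4 in the omissions, against 2. The added calls with the value table were Hbegf, Kitl and Nrp1. Hbegf also passed without normalization between arrays, with no filter, with the intensity trend, with robust variance and without FEAT 20, and Kitl without control 2. Grb10 stayed uncalled in 5 of 6 omissions, and its adjusted p (limma) went down to 0.0213 over the omissions. Receptors above background numbered 18 to 20 under the other limits. Those at background numbered 14 with the limit at 2 SDs and 24 with it at 5 SDs, against 20.

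Of 200 values of the present receptors under other settings, 198 kept their direction. With the mean over the tested probes of a gene, Insr was -0.10 and Flt1 -0.011, and Lmtk2 of the other receptors was -0.082. This setting adds dimmer probes. The one added for Lmtk2 was above the limit on all arrays and gave -0.24, against 0.076 on the brightest. In omissions of a clone 108 of 120 values kept their direction. The ranges that crossed 0 were -0.030 to 0.44 for Pdgfra, -0.47 to 0.16 for Pdgfrb, -0.039 to 0.17 for Fgfr2, -0.076 to 0.28 for Met, -0.19 to 0.16 for Flt1, -0.15 to 0.063 for Tyro3, -0.091 to 0.33 for Ror2 and -0.10 to 0.19 for Lmtk2. The cause was not tested.

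No paired analysis was possible because the groups share 1 clone number, 3, which only names the clones. No source used here gives the slide or batch.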
